A study of Homo sapiens with 12 samples.

Results

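Ribosome biogenesis genes encode the proteins that transcribe, process and assemble ribosomal RNA, and 47 of them were followed here in A549 cells depleted of SDS3 or of FAM60A. A549 is a human lung adenocarcinoma line. SDS3 (gene SUDS3) and FAM60A (gene SINHCAF) are subunits of the SIN3-HDAC complex, a corepressor that removes acetyl groups from histones. The members came from a list of 38 nucleolar and ribosome assembly genes plus every gene whose symbol is UTP with a number or POLR1 with a letter A to E. Of the 38 listed genes, 32 had a probe set annotated to them alone, and 15 more genes came through the symbol patterns. NOP56, DKC1, BOP1 and PPAN, and the pattern gene UTP14C, were represented only by probe sets annotated to several genes, and GNL3 and DDX18 were not analysed here. All 47 members passed the filter on low signal, and they stand among 19775 genes with a probe set of their own, of which 18621 were tested.

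Ribosomal RNA is made in the nucleolus by RNA polymerase I, and box C/D and box H/ACA ribonucleoproteins then modify it at sites chosen by small nucleolar RNAs. The small-subunit processome, built around the U3 small nucleolar RNA, folds and cleaves the precursor of the 40S subunit, while a separate set of factors builds the 60S subunit. Many of these genes are known targets of the transcription factor MYC, and their output follows cell growth.

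The 4 groups were A549 cells given SDS3 siRNA, their own controls given non-targeting siRNA, cells given FAM60A siRNA, and their own controls given non-targeting siRNA, with n = 3 arrays in each. The treatment description gives 50 nM siRNA and RNA collection 3 days after transfection, but it names only the FAM60A siRNA, so the same conditions are taken for SDS3 from the shared text. Transfection was transient, and the labels name no second siRNA for either target. Wells were plated in triplicate with no statement of separate cultures, so the p-values reflect only how far these samples spread, and that spread may be technical.

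The targets moved with their labels. SUDS3 had 8.48, 8.32 and 8.62 in SDS3 knockdown cells, against 10.11, 10.02 and 10.03 in their controls, which left 33.4% of the control signal. SINHCAF had 9.36, 9.12 and 9.43 in FAM60A knockdown cells, against 11.99, 11.97 and 12.01 in their controls, which left 15.5%. Of 5 epithelial markers, KRT8, KRT18, CDH1 and EPCAM fell and KRT7 rose in SDS3 knockdown cells, and CDH1 and EPCAM fell and KRT7 rose in FAM60A knockdown cells, while the 3 keratins averaged 13.87 to 15.05 on the log2 scale over the groups. Of 5 blood markers only PTPRC was below the signal filter, and the group means of CD3E, CD79A, CD14 and LYZ were 4.71 to 8.52, with CD14 lower in SDS3 knockdown cells (-0.28). Median intensity was 96.8 to 98.3 on the SDS3 experiment's arrays and 186 to 193 on the FAM60A experiment's arrays, so levels are compared only within an experiment. Per-array values are log2 signals and are not compared between genes. Changes are log2 differences, knockdown minus control, and a gene passed where limma's Benjamini-Hochberg adjusted p over all tested genes was under 0.05.

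Ribosome biogenesis genes fell more often than they rose after either knockdown, mostly by small amounts. After SDS3 knockdown 20 of the 47 members fell, which is 42.6%, against 18.8% of all tested genes, and 6 rose, which is 12.8%, against 15.8% of all genes. After FAM60A knockdown 31 members fell, which is 66%, against 17.6% of all tested genes, and 1 rose, against 19.2%. In either direction 26 and 32 members passed, against 34.6% and 36.8% of all genes. The median change of the members was -0.092 in SDS3 knockdown cells, where that of all genes was 0.006. It was -0.248 in FAM60A knockdown cells, where that of all genes was -0.023. All 3 SDS3 knockdown arrays lay below all 3 controls for 24 members, against 25.2% of all genes, and above them for 7, against 22.4%. All 3 FAM60A knockdown arrays lay below the controls for 35 members, against 24.4% of all genes, and above them for 2, against 23.7%. The members were brighter than the average tested gene, with array means of 10.936 to 11.64 against 8.142 to 8.976. With the filter raised to log2 7, 44.7% of members and 24.3% of all genes fell in SDS3 knockdown cells. In FAM60A knockdown cells these shares were 68.1% and 21.6%. Genes matched to the members by signal were not compared. In these bulk samples fewer cells making a transcript and less of it per cell cannot be told apart. The SDS3 count of 20 lower members depended on single arrays. It was 13 without SDS3 control 1 (27.7%, against 16.6% of all genes) and 11 without SDS3 control 2 (23.4%, against 15.4%). Without SDS3 knockdown 1 it was 12 (25.5%, against 15%). It was 13 when each gene's probe sets were averaged (27.7%, against 18.1% of all genes). It was 13 of 46 members when probe sets of the shared-sequence class were left out (28.3%, against 16.8%).

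**Figure D1:**
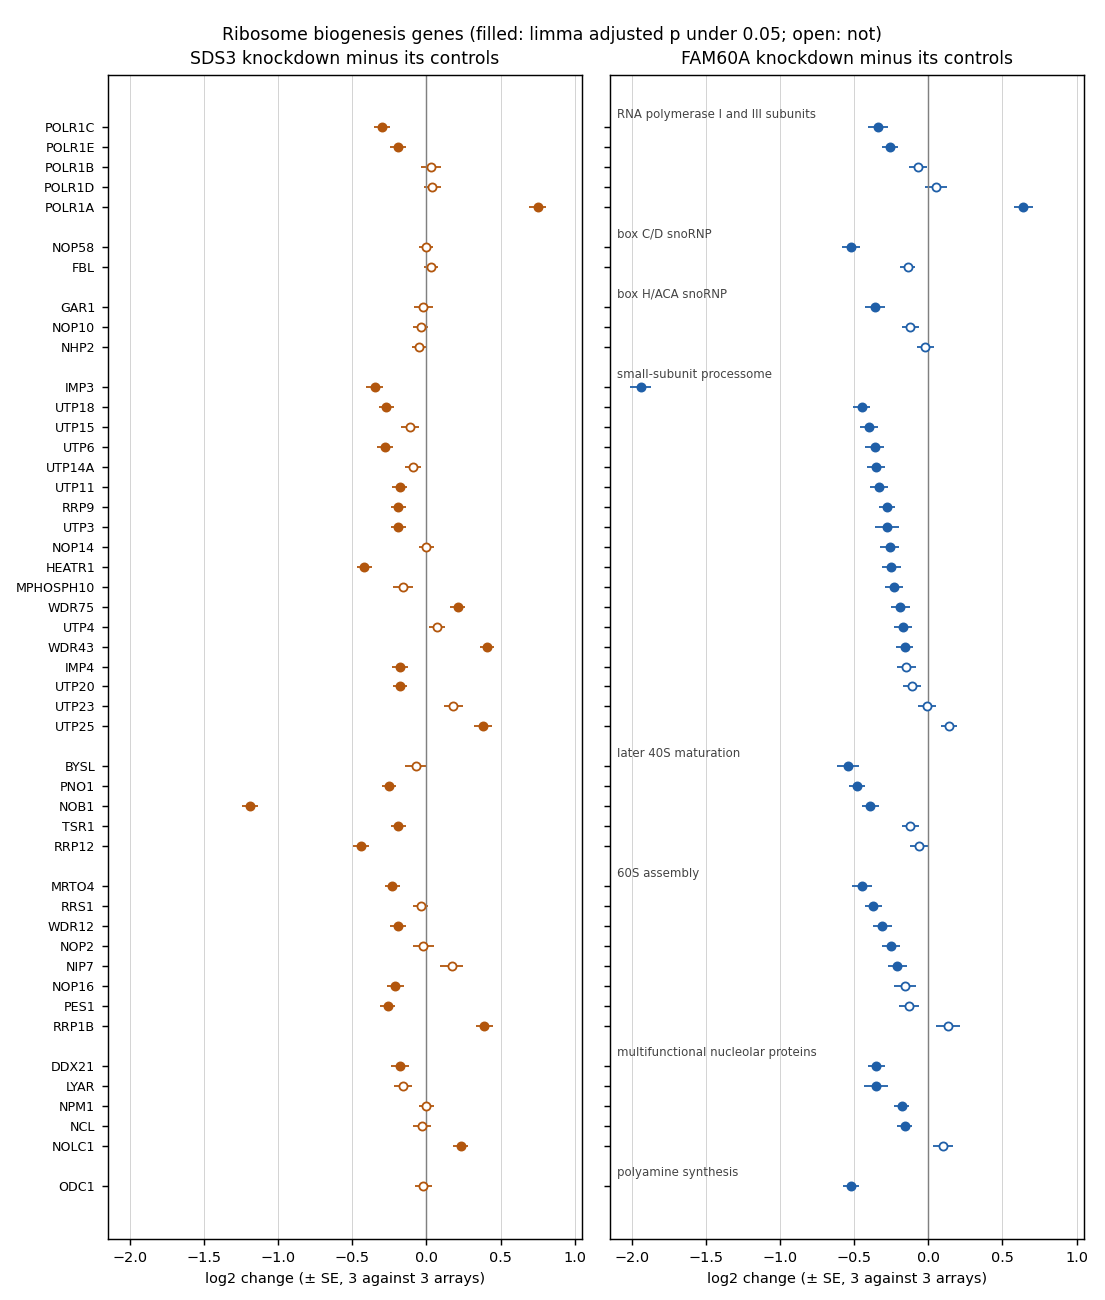
Log2 change (knockdown minus control, x axis) with standard error for each of the 47 members (y axis, grouped by role), SDS3 knockdown at left and FAM60A knockdown at right. Filled points passed the test; IMP3 in FAM60A knockdown cells (-1.94) and NOB1 in SDS3 knockdown cells (-1.19) lie far left of the other members.

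Only 2 members changed by more than 1 log2 unit in these fits. IMP3 fell to 26.1% of control in FAM60A knockdown cells, and NOB1 fell to 43.8% of control in SDS3 knockdown cells. The next largest fall after FAM60A knockdown was 0.54 (BYSL), and after SDS3 knockdown 0.44 (RRP12). The only rise of more than 0.5 in either experiment was that of POLR1A.

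Of the 20 members that fell in SDS3 knockdown cells 70% also fell in FAM60A knockdown cells, and of the 31 that fell in FAM60A knockdown cells 45.2% also fell in SDS3 knockdown cells. Of all 47 members 66% fell in FAM60A knockdown cells and 42.6% in SDS3 knockdown cells. The 70% and 45.2% are therefore near the members' own shares. The 14 members that fell in both compare with 8.76% of all tested genes. POLR1A alone among the members rose in both, against 9.33% of all genes. WDR43 and WDR75 rose in SDS3 knockdown cells and fell in FAM60A knockdown cells, a pattern of 0.779% of all genes, where 2.59% passed with opposite signs in either order. The experiments share no control array. When the 2 changes were subtracted in 1 fit of 12 arrays, SDS3 minus FAM60A was positive and passed for 15 members, against 9.99% of all genes, and negative for 2, against 15.3%, so that 17 passed in all, against 25.3%. The median of that difference over the members was 0.171, where that of all genes was 0.013.

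Scaling bears on the SDS3 counts. Scaled to spike-in RNAs added before labelling, the median of all genes in SDS3 knockdown cells moved to -0.281, and 30 members fell while 1 rose, against 44.2% and 3.17% of all genes. In FAM60A knockdown cells the same scaling gave 24 lower and 1 higher, against 12.5% and 8.06% of all genes, and the difference between knockdowns then passed for 1 member upward (IMP3) and 2 downward (NOB1 and RRP12), against 1.22% and 13% of all genes. Scaled to spike-ins added at hybridization, a choice made after seeing the data, 18 members fell in FAM60A knockdown cells, against 9.2% of all genes, and the difference passed for 4 upward and 2 downward, against 2.88% and 20.2%. The gap between the members' median and that of all genes, -0.098 for SDS3 and -0.225 for FAM60A, is not touched by such a scaling. Each array's spike-in mean is subtracted from every gene, so the spread of these means enters all genes alike. For spike-ins added before labelling they ran from 10.262 to 10.563 within FAM60A knockdown, where the shift between groups was 0.09. The p-values under these scalings are therefore not directly comparable with the main fit. How many calls were lost through that spread was not tested.

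Several calls were lost without at least 1 of the arrays when each was left out in turn. In SDS3 knockdown cells these were 10 of the 26, all falls (DDX21, IMP4, NOP16, POLR1E, RRP9, TSR1, UTP11, UTP20, UTP3 and WDR12). In FAM60A knockdown cells they were 7 of the 32, also falls (NCL, NIP7, NPM1, UTP3, UTP4, WDR43 and WDR75). Among the 17 differences they were 5 (NOP14, UTP14A, UTP15, UTP25 and UTP4).

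**Figure D2:**
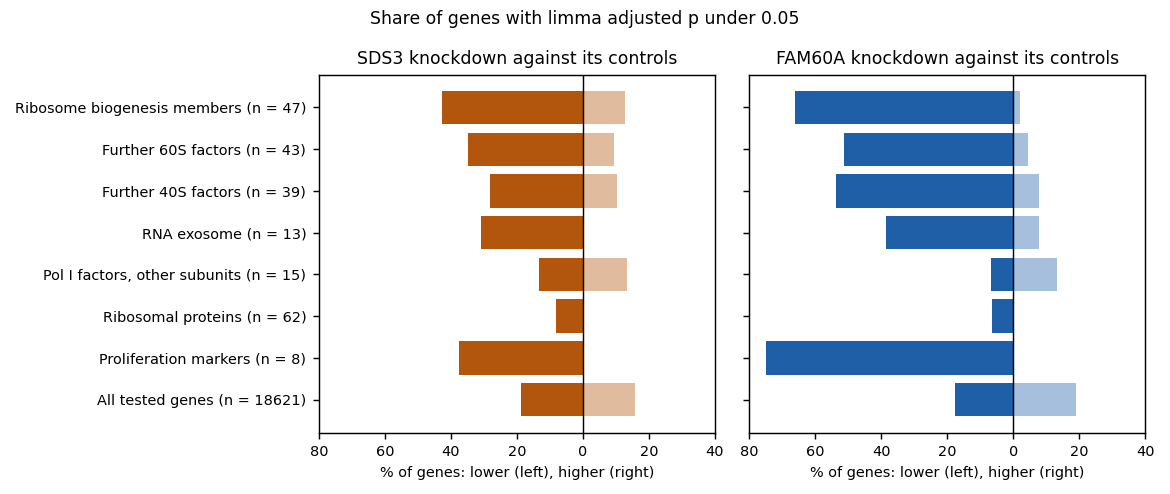
Share of genes (per cent, x axis) that fell or rose for the members, each related list and all tested genes (y axis), SDS3 knockdown at left and FAM60A knockdown at right. The members' bars for falls reach 42.6% and 66%, against 18.8% and 17.6% for all genes.

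The promoters of 9 members are shown because they carry the genes with the largest changes and examples of the E-box, the sequence CACGTG that MYC with its partner MAX is known to bind. The sequences are from RefSeq on build GRCh38.p14, each 80 bases read 5′ to 3′ on the gene's strand, with 60 bases before the annotated start and 20 from it, and capitals mark the E-box. IMP3 lies at chr15:75640205-75640284 on the minus strand, NOB1 at chr16:69754907-69754986 on the minus strand and POLR1A at chr2:86105867-86105946 on the minus strand. PNO1 lies at chr2:68157828-68157907, MRTO4 at chr1:19251745-19251824, UTP18 at chr17:51260486-51260565, UTP4 at chr16:69132589-69132668 and WDR43 at chr2:28894607-28894686, all on the plus strand. RRP9 lies at chr3:51941885-51941964 on the minus strand.
IMP3: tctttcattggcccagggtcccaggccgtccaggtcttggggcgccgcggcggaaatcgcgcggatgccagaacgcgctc
NOB1: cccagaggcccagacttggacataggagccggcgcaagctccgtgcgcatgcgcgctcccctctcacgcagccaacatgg
POLR1A: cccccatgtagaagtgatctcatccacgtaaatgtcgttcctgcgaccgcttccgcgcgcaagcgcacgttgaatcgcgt
PNO1: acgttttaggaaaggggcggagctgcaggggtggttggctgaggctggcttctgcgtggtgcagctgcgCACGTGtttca
MRTO4: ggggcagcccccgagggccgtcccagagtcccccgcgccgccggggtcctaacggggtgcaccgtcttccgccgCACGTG
UTP18: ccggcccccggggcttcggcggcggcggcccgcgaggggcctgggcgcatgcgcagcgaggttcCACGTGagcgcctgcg
RRP9: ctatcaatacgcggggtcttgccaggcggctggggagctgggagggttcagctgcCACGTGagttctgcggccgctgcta
UTP4: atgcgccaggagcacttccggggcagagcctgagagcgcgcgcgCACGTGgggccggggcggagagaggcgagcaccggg
WDR43: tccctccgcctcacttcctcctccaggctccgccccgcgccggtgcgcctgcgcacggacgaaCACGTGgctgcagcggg
The stretches printed for IMP3, NOB1 and POLR1A, the members with the largest changes, hold no CACGTG. The other 6 were printed as examples of the E-box and hold 1 each, so this contrast follows from the choice of promoters. Promoter windows from 250 bases before to 50 after a start were matched for 39 members by symbol, counting a gene when any of its listed starts held the motif. The motif CACGTG, which reads the same on both strands, was present for 20 of these 39 members, which is 51.3%, against 11.2% of 14544 tested genes. It was present for 44.4% of 18 members that fell in SDS3 knockdown cells and 57.1% of the 21 others. For FAM60A it was present for 51.9% of 27 members that fell and 50% of the 12 others. The ETS core CCGGAAG, searched on both strands and sharing no full copy with the E-box, was present for 33.3% of the members against 17.2% of tested genes. A match is a description of these windows and not evidence of binding. MYC itself had 12.55, 12.63 and 12.73 in SDS3 knockdown cells, against 12.41, 12.43 and 12.49 in their controls (log2 change 0.19, SE 0.0605, adjusted p = 0.0373), and 12.53, 12.46 and 12.51 in FAM60A knockdown cells, against 12.32, 12.22 and 12.34 in their controls (log2 change 0.21, SE 0.0575, adjusted p = 0.0148). MYC was higher in both knockdowns, although spike-in scaling turned its SDS3 change to -0.09 and left its FAM60A change at 0.12, neither passing. With quantile normalization and with hybridization spike-ins its SDS3 change of 0.18 and 0.11 did not pass either (adjusted p = 0.051 and 0.256).

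The subunits of RNA polymerase I and III, the enzymes that transcribe ribosomal and transfer RNA, split in direction. POLR1A, the largest catalytic subunit of RNA polymerase I, had 10.36, 10.32 and 10.30 in SDS3 knockdown cells, against 9.66, 9.54 and 9.55 in their controls, a rise to 168% of control (log2 change 0.75, SE 0.0552, adjusted p = 2.04e-05). It had 10.46, 10.34 and 10.53 in FAM60A knockdown cells, against 9.86, 9.82 and 9.76 in their controls, a rise to 155% of control (log2 change 0.64, SE 0.0643, adjusted p = 2.18e-05). The knockdown and control arrays do not overlap in either experiment, and the changes differed by 0.11 (adjusted p = 0.371). One further POLR1A probe set rose by 0.39 in SDS3 knockdown cells and 0.49 in FAM60A knockdown cells, and another gave 0.12 and 0.13 and did not pass.

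POLR1C, a subunit shared by both polymerases, fell in both experiments. It had 9.63, 9.62 and 9.61 in SDS3 knockdown cells, against 9.99, 9.91 and 9.87 in their controls (log2 change -0.30, SE 0.0526, adjusted p = 0.00228), and 10.33, 10.31 and 10.33 in FAM60A knockdown cells, against 10.57, 10.81 and 10.61 in their controls (log2 change -0.34, SE 0.0694, adjusted p = 0.00261). The groups are apart in both, and its other probe set fell by 0.35 and 0.29. POLR1E, a polymerase I subunit that acts in initiation and elongation, had 9.65, 9.74 and 9.74 in SDS3 knockdown cells, against 9.94, 9.90 and 9.86 in their controls, and 9.98, 10.04 and 10.05 in FAM60A knockdown cells, against 10.30, 10.24 and 10.31 in their controls. It fell by 0.19 in SDS3 knockdown cells and 0.26 in FAM60A knockdown cells, with adjusted p = 0.0225 and 0.0035, and again the arrays do not overlap, although averaging its probe sets gave 0.02 in SDS3 knockdown cells.

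The second-largest polymerase I subunit, POLR1B, had 9.83, 9.89 and 10.04 in SDS3 knockdown cells, against 9.92, 9.91 and 9.85 in their controls, and 10.52, 10.47 and 10.59 in FAM60A knockdown cells, against 10.59, 10.56 and 10.66 in their controls. Its arrays overlap and neither change passed (0.03, adjusted p = 0.783, and -0.07, adjusted p = 0.36). POLR1D, shared with polymerase III, had 12.25, 12.29 and 12.18 in SDS3 knockdown cells, against 12.20, 12.26 and 12.15 in their controls, and 12.83, 12.83 and 12.81 in FAM60A knockdown cells, against 12.73, 12.95 and 12.65 in their controls, with overlapping arrays and changes of 0.04 and 0.05 that did not pass. Other probe sets of these genes did pass, at -0.17 for POLR1B and -0.35 for POLR1D in SDS3 knockdown cells and at -0.27 for POLR1D in FAM60A knockdown cells.

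Among the 2 measured box C/D proteins, which guide 2′-O-methylation of ribosomal RNA, NOP58 changed in FAM60A knockdown cells and not detectably in SDS3 knockdown cells. NOP58, a core scaffold of the particle, had 11.89, 11.89 and 11.91 in SDS3 knockdown cells, against 11.92, 11.87 and 11.90 in their controls (log2 change 0, SE 0.0474, adjusted p = 0.963). It had 12.41, 12.28 and 12.29 in FAM60A knockdown cells, against 12.80, 12.88 and 12.86 in their controls, a fall to 69.8% of control (log2 change -0.52, SE 0.0592, adjusted p = 5.16e-05). The SDS3 arrays overlap whereas the FAM60A arrays are apart, and the difference between the changes was 0.52 (SE 0.0723, adjusted p = 0.000116). Fibrillarin (FBL), the methyltransferase, had 13.68, 13.72 and 13.72 in SDS3 knockdown cells, against 13.64, 13.70 and 13.68 in their controls with overlap, and 14.06, 14.04 and 14.09 in FAM60A knockdown cells, against 14.23, 14.23 and 14.16 in their controls. All FAM60A knockdown arrays of FBL were lower than the controls, but the change of -0.14 did not pass (adjusted p = 0.0617).

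The box H/ACA particle guides pseudouridylation, and 1 of its 3 measured proteins fell. GAR1 had 10.21, 10.25 and 10.18 in SDS3 knockdown cells, against 10.12, 10.31 and 10.26 in their controls with overlap and a change of -0.02, and 10.87, 10.72 and 10.71 in FAM60A knockdown cells, against 11.12, 11.21 and 11.05 in their controls, a fall to 77.7% of control (log2 change -0.36, SE 0.0667, adjusted p = 0.00137). Its changes differed by 0.35 (adjusted p = 0.0126). NOP10 had 13.80, 13.80 and 13.80 in SDS3 knockdown cells, against 13.88, 13.87 and 13.78 in their controls, and 14.04, 14.13 and 14.07 in FAM60A knockdown cells, against 14.24, 14.20 and 14.16 in their controls. NHP2 had 13.74, 13.76 and 13.75 in SDS3 knockdown cells, against 13.79, 13.85 and 13.77 in their controls, and 14.18, 14.10 and 14.15 in FAM60A knockdown cells, against 14.11, 14.24 and 14.13 in their controls. Neither NOP10 nor NHP2 passed in either experiment, although the FAM60A arrays of NOP10 and the SDS3 arrays of NHP2 lay below their controls.

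The small-subunit processome, with 18 measured genes, had 9 lower and 3 higher in SDS3 knockdown cells and 14 lower and none higher in FAM60A knockdown cells. Falls were 50% and 77.8% of its genes, against 18.8% and 17.6% of all tested genes, and SDS3 rises were 16.7%, against 15.8%. The processome medians were -0.168 and -0.256. IMP3, a U3 ribonucleoprotein subunit (Entrez Gene 55272, a different gene from IGF2BP3, which has carried the same name), had 12.10, 12.12 and 12.08 in SDS3 knockdown cells, against 12.48, 12.50 and 12.37 in their controls, a fall to 78.3% of control (log2 change -0.35, SE 0.0551, adjusted p = 0.00125). It had 10.31, 10.35 and 10.49 in FAM60A knockdown cells, against 12.27, 12.44 and 12.26 in their controls, a fall to 26.1% (log2 change -1.94, SE 0.071, adjusted p = 2.03e-08). The FAM60A knockdown arrays sat far under their controls with no overlap. The changes differed by 1.59 (SE 0.0921, adjusted p = 7.45e-08), the largest difference among the members. IMP3 has a single probe set, of a class that may match more than 1 transcript, so no second probe set measures its fall. Its partner IMP4 changed by -0.18 in SDS3 knockdown cells (adjusted p = 0.0327) and by -0.15 in FAM60A knockdown cells (adjusted p = 0.09).

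**Figure D3:**
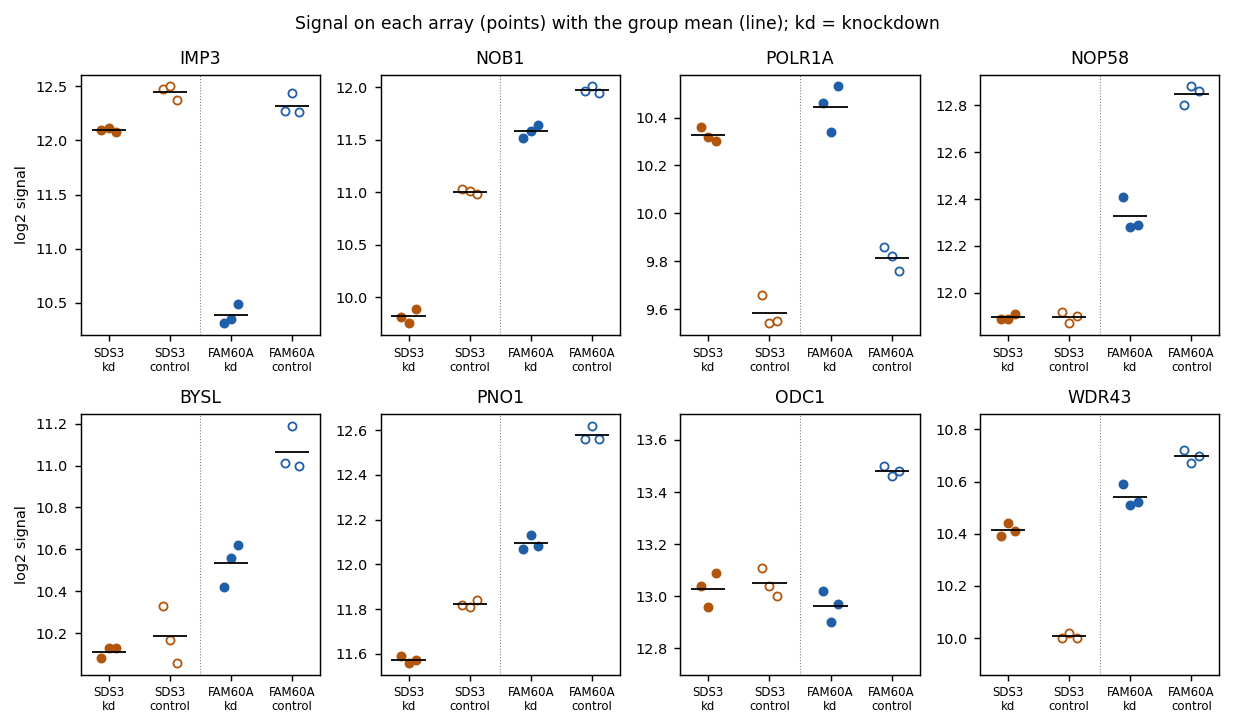
Log2 signal (y axis) of each array for 8 members, 1 panel a gene, with SDS3 knockdown, SDS3 control, FAM60A knockdown and FAM60A control along the x axis and a bar at each group mean. In FAM60A knockdown cells IMP3 stands at 10.31 to 10.49, against 12.26 to 12.44 in controls, and in SDS3 knockdown cells NOB1 stands at 9.75 to 9.89, against 10.98 to 11.03 in controls.

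HEATR1, a large scaffold needed for ribosomal RNA transcription and processing, had 10.75, 10.76 and 10.82 in SDS3 knockdown cells, against 11.22, 11.18 and 11.17 in their controls (log2 change -0.42, SE 0.0501, adjusted p = 0.000286), and 11.56, 11.42 and 11.55 in FAM60A knockdown cells, against 11.79, 11.68 and 11.81 in their controls (log2 change -0.25, SE 0.063, adjusted p = 0.0098). All arrays were lower in both. Its 2 other probe sets that could be tested fell by 0.31 and 0.3 in SDS3 knockdown cells and gave -0.3, which passed, and -0.07, which did not, in FAM60A knockdown cells. The FAM60A fall of HEATR1 also missed the threshold with averaged probe sets and with hybridization spike-ins. UTP18 had 12.14, 12.18 and 12.22 in SDS3 knockdown cells, against 12.49, 12.45 and 12.41 in their controls (log2 change -0.27, SE 0.0513, adjusted p = 0.00369), and 12.85, 12.96 and 12.89 in FAM60A knockdown cells, against 13.36, 13.37 and 13.33 in their controls (log2 change -0.45, SE 0.0551, adjusted p = 8.29e-05). UTP6 had 11.02, 11.09 and 11.16 in SDS3 knockdown cells, against 11.36, 11.35 and 11.38 in their controls, and 11.63, 11.53 and 11.60 in FAM60A knockdown cells, against 12.01, 11.98 and 11.84 in their controls, falls of 0.28 and 0.36 with adjusted p = 0.00403 and 0.000994. UTP18, whose promoter E-box is printed above, and UTP6 both belong to the UTP-B complex of the processome, and in both the groups are apart. A second UTP18 probe set gave -0.26 in SDS3 and -0.07 in FAM60A knockdown cells and passed in neither. A faint second UTP6 probe set (mean log2 signal 4.39) gave 0.02 and 0.03, which did not pass.

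UTP15, a subunit of the complex that links transcription to processing, had 8.53, 8.52 and 8.66 in SDS3 knockdown cells, against 8.63, 8.69 and 8.73 in their controls with overlap (change -0.11, adjusted p = 0.205), and 8.95, 8.85 and 8.86 in FAM60A knockdown cells, against 9.35, 9.20 and 9.33 in their controls, a fall of 0.4 (adjusted p = 0.000438). Another UTP15 probe set gave -0.05 in SDS3 and -0.16 in FAM60A knockdown cells and passed in neither. The complex of UTP15 also includes UTP4, HEATR1, WDR43 and WDR75. UTP4 changed by 0.07 without passing in SDS3 knockdown cells and fell by 0.17 in FAM60A knockdown cells (adjusted p = 0.0445). Within this complex HEATR1 fell in both knockdowns, while WDR43 and WDR75 had opposite signs in the 2 experiments, with FAM60A falls close to the threshold.

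WDR43 had 10.39, 10.44 and 10.41 in SDS3 knockdown cells, against 10.00, 10.02 and 10.00 in their controls, a rise to 132% of control (log2 change 0.41, SE 0.0472, adjusted p = 0.000239), and 10.59, 10.51 and 10.52 in FAM60A knockdown cells, against 10.72, 10.67 and 10.70 in their controls, a fall to 89.7% (log2 change -0.16, SE 0.0545, adjusted p = 0.0442). The arrays do not overlap in either experiment. The FAM60A fall of WDR43 passed in 8 of 17 alternatives and was lost without any 1 of 5 of the 6 arrays (controls 1, 2 and 3, knockdowns 2 and 3) and under both spike-in scalings. Its SDS3 change was 0.12 (adjusted p = 0.439) with spike-ins added before labelling. WDR75 had 9.64, 9.70 and 9.72 in SDS3 knockdown cells, against 9.48, 9.44 and 9.51 in their controls (log2 change 0.21, SE 0.0508, adjusted p = 0.0108), and 10.02, 9.87 and 9.97 in FAM60A knockdown cells, against 10.20, 10.06 and 10.18 in their controls (log2 change -0.19, SE 0.0642, adjusted p = 0.0404). In WDR75 the SDS3 arrays are apart and the FAM60A knockdown arrays lie just below the controls, and with spike-ins added before labelling WDR75 had -0.07 in SDS3 knockdown cells. Its FAM60A fall passed in 11 of 17 alternatives, and was lost without control 1, control 3, knockdown 2 or knockdown 3 and under both spike-in scalings. The difference between the changes was 0.56 for WDR43 and 0.4 for WDR75, with adjusted p = 2.86e-05 and 0.00212, and with spike-ins added before labelling these were 0.36 and 0.2 and did not pass.

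UTP25, a component of the processome, had 9.27, 9.28 and 9.40 in SDS3 knockdown cells, against 9.02, 8.89 and 8.90 in their controls (log2 change 0.38, SE 0.0615, adjusted p = 0.00151), and 9.57, 9.57 and 9.57 in FAM60A knockdown cells, against 9.43, 9.43 and 9.43 in their controls (log2 change 0.14, SE 0.0514, adjusted p = 0.0544). The probe set used here was higher in all SDS3 knockdown arrays, yet the gene's 3 other probe sets gave -0.3, -0.46 and -0.21 in SDS3 knockdown cells and -0.6, -0.53 and -0.82 in FAM60A knockdown cells, so no single direction holds for UTP25.

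The remaining processome members were UTP14A, UTP11, RRP9, UTP3, NOP14, MPHOSPH10, UTP20 and UTP23. UTP11, RRP9 and UTP3 fell in both knockdowns, by 0.18 to 0.19 in SDS3 knockdown cells and by 0.28 to 0.33 in FAM60A knockdown cells. RRP9, a U3-binding protein with an E-box in its printed promoter, averaged 9.05 ± 0.0133 in SDS3 knockdown cells and 9.24 ± 0.0606 in controls, and 9.75 ± 0.0136 in FAM60A knockdown cells and 10.03 ± 0.0314 in controls (SD, n = 3 each). UTP14A, NOP14 and MPHOSPH10 fell by 0.35, 0.26 and 0.23 in FAM60A knockdown cells, and their SDS3 changes of -0.09, 0 and -0.16 did not pass. UTP20 fell by 0.18 in SDS3 knockdown cells (adjusted p = 0.0159) and gave -0.11 in FAM60A knockdown cells (adjusted p = 0.204). UTP23 passed in neither, with 0.18 and -0.01, although another of its probe sets fell by 0.24 and 0.38.

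The factors of later 40S maturation numbered 5, of which 4 fell in SDS3 knockdown cells and 3 in FAM60A knockdown cells, with none higher. These falls were 80% and 60%, against 18.8% and 17.6% of all tested genes. NOB1, the endonuclease that makes the final cut to form 18S ribosomal RNA, had 9.81, 9.75 and 9.89 in SDS3 knockdown cells, against 11.03, 11.01 and 10.98 in their controls, a fall to 43.8% of control (log2 change -1.19, SE 0.0551, adjusted p = 2.18e-06). It had 11.52, 11.58 and 11.64 in FAM60A knockdown cells, against 11.97, 12.01 and 11.95 in their controls, a fall to 76.1% (log2 change -0.39, SE 0.0566, adjusted p = 0.000259). No arrays overlap between knockdown and control, and the SDS3 change was the larger fall (SDS3 minus FAM60A -0.8, SE 0.0757, adjusted p = 4.39e-06). PNO1, whose yeast counterpart binds that of NOB1, had 11.59, 11.56 and 11.57 in SDS3 knockdown cells, against 11.82, 11.81 and 11.84 in their controls (log2 change -0.25, SE 0.0468, adjusted p = 0.00335), and 12.07, 12.13 and 12.08 in FAM60A knockdown cells, against 12.56, 12.62 and 12.56 in their controls (log2 change -0.48, SE 0.0539, adjusted p = 4.34e-05). PNO1 fell in both. The difference of its changes was 0.23 (adjusted p = 0.0165), but 0.04 and 0.1 under the spike-in scalings, where it did not pass.

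BYSL (bystin), an assembly factor of the 40S precursor, had 10.08, 10.13 and 10.13 in SDS3 knockdown cells, against 10.33, 10.17 and 10.06 in their controls with overlap (log2 change -0.07, SE 0.0718, adjusted p = 0.48), and 10.42, 10.56 and 10.62 in FAM60A knockdown cells, against 11.01, 11.19 and 11.00 in their controls, a fall to 69% of control (log2 change -0.54, SE 0.0741, adjusted p = 0.000202). The difference was 0.46 (adjusted p = 0.00597). RRP12 had 9.39, 9.34 and 9.47 in SDS3 knockdown cells, against 9.87, 9.80 and 9.84 in their controls (log2 change -0.44, SE 0.0557, adjusted p = 0.000399), and 10.26, 10.12 and 10.20 in FAM60A knockdown cells, against 10.24, 10.33 and 10.20 in their controls (log2 change -0.06, SE 0.0617, adjusted p = 0.494), apart in the SDS3 experiment and overlapping in the other. Its changes differed by -0.38 (adjusted p = 0.00366), but its 4 other probe sets gave -0.08, 0.2, 0.23 and 0 in SDS3 knockdown cells, so the fall rests on 1 probe set. TSR1, a GTPase-like factor of the late particle, had 10.76, 10.68 and 10.76 in SDS3 knockdown cells, against 10.91, 10.96 and 10.91 in their controls (log2 change -0.19, SE 0.0507, adjusted p = 0.0174), and 11.67, 11.68 and 11.70 in FAM60A knockdown cells, against 11.87, 11.77 and 11.78 in their controls, lower on every array without passing (-0.12, adjusted p = 0.11). Its probe set is of the shared-sequence class, and the one used in its place without that class gave 0.16 in SDS3 knockdown cells.

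**Figure D4:**
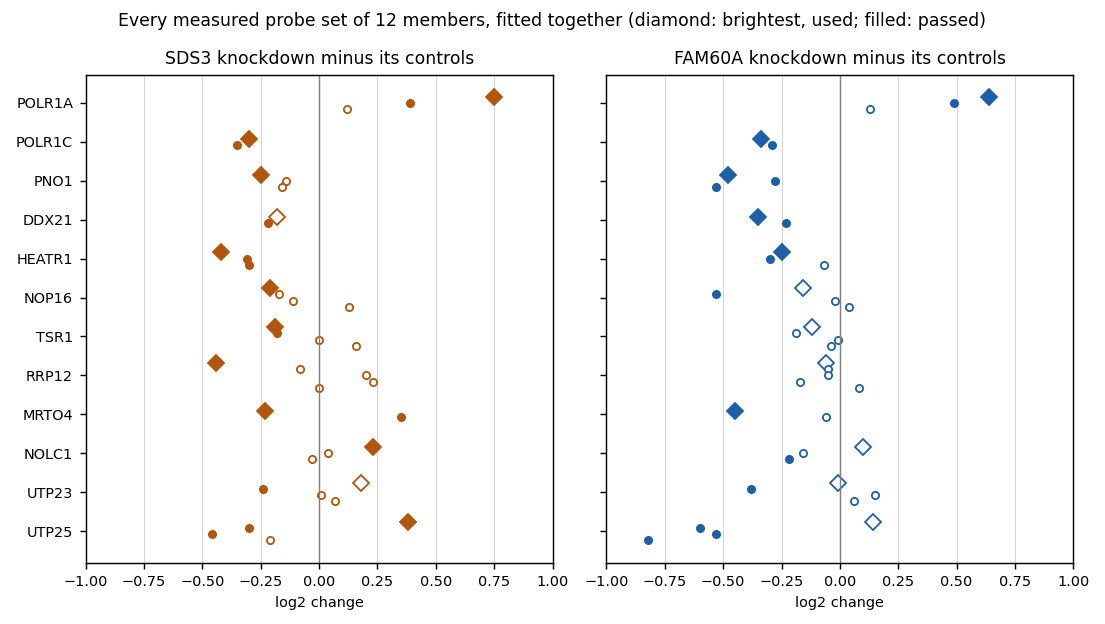
Log2 change (x axis) of every measured probe set of 12 members (y axis), SDS3 knockdown at left and FAM60A knockdown at right, with a diamond for the brightest probe set, which stands for the gene, and filled markers for those that passed in a fit of all probe sets together. UTP25's diamond (0.38 in SDS3 knockdown cells) lies on the other side of 0 from its 3 other probe sets (-0.3, -0.46 and -0.21), and DDX21's diamond, which passed in the fit by gene, is open at left.

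Probe sets of a gene did not always move together. Of the 26 members that passed in SDS3 knockdown cells, 17 had another measured probe set, and for 6 of these such a probe set also passed with the same sign. For 2, MRTO4 and UTP25, one passed with the opposite sign. Of the 32 that passed in FAM60A knockdown cells, 17 had another, and it passed with the same sign for 7 and with the opposite sign for none.

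The 60S assembly factors had 4 of 8 lower and 1 higher in SDS3 knockdown cells, and 5 lower and none higher in FAM60A knockdown cells. Falls were 50% and 62.5%, against 18.8% and 17.6% of all tested genes, and the SDS3 rise was 12.5%, against 15.8%. MRTO4, which marks the site later filled by the ribosomal stalk proteins, had 10.21, 10.21 and 10.18 in SDS3 knockdown cells, against 10.45, 10.46 and 10.37 in their controls (log2 change -0.23, SE 0.0507, adjusted p = 0.00756), and 10.51, 10.43 and 10.45 in FAM60A knockdown cells, against 10.91, 11.03 and 10.80 in their controls (log2 change -0.45, SE 0.0672, adjusted p = 0.00033). The arrays are apart in both, while a second MRTO4 probe set gave 0.35 in SDS3 knockdown cells (adjusted p = 0.0228) and -0.06 in FAM60A knockdown cells. PES1, which with WDR12 and BOP1 forms a complex needed for 60S processing, had 10.29, 10.35 and 10.34 in SDS3 knockdown cells, against 10.61, 10.62 and 10.55 in their controls (log2 change -0.26, SE 0.0506, adjusted p = 0.00374), and 11.15, 11.07 and 11.24 in FAM60A knockdown cells, against 11.19, 11.35 and 11.29 in their controls (log2 change -0.13, SE 0.066, adjusted p = 0.163). Its SDS3 arrays are apart and its FAM60A arrays overlap. WDR12 fell by 0.19 and 0.31 in the 2 knockdowns (adjusted p = 0.0242 and 0.00296).

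RRP1B was the 60S gene that rose in SDS3 knockdown cells. It had 12.11, 12 and 12.04 in SDS3 knockdown cells, against 11.72, 11.64 and 11.61 in their controls (log2 change 0.39, SE 0.0563, adjusted p = 0.000787), and 11.67, 11.97 and 11.80 in FAM60A knockdown cells, against 11.75, 11.59 and 11.73 in their controls with overlap (log2 change 0.13, SE 0.0809, adjusted p = 0.264). RRS1, NOP2 and NIP7 fell by 0.37, 0.25 and 0.21 in FAM60A knockdown cells, and their SDS3 changes of -0.04, -0.02 and 0.17 did not pass. The difference between the knockdowns passed for RRS1 (0.33, adjusted p = 0.00581) and NIP7 (0.38, adjusted p = 0.0132) but not for NOP2 (0.23, adjusted p = 0.0961). NOP16 fell by 0.21 in SDS3 knockdown cells (adjusted p = 0.0205) and gave -0.16 in FAM60A knockdown cells (adjusted p = 0.11), where another of its probe sets fell by 0.53.

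The multifunctional nucleolar proteins were mostly lower in FAM60A knockdown cells, with 4 of 5 passing (80%, against 17.6% of all tested genes). In SDS3 knockdown cells 1 was lower and 1 higher (20% each, against 18.8% and 15.8%). DDX21, an RNA helicase of the nucleolus, had 12.60, 12.47 and 12.66 in SDS3 knockdown cells, against 12.75, 12.78 and 12.75 in their controls (log2 change -0.18, SE 0.0608, adjusted p = 0.0466), and 13.10, 12.99 and 12.98 in FAM60A knockdown cells, against 13.41, 13.35 and 13.37 in their controls (log2 change -0.35, SE 0.0573, adjusted p = 0.000594). LYAR, a nucleolar growth-associated protein, had 8.80, 8.92 and 8.76 in SDS3 knockdown cells, against 8.92, 9.02 and 9.03 in their controls (log2 change -0.16, SE 0.0616, adjusted p = 0.0734), and 9.51, 9.30 and 9.41 in FAM60A knockdown cells, against 9.69, 9.92 and 9.66 in their controls (log2 change -0.35, SE 0.0805, adjusted p = 0.0053). In LYAR all knockdown arrays were below the controls in both experiments, but the SDS3 change did not pass.

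Nucleophosmin (NPM1), a chaperone of histones and ribosomal proteins, had 14.26, 14.26 and 14.22 in SDS3 knockdown cells, against 14.20, 14.28 and 14.27 in their controls with overlap, and 14.57, 14.56 and 14.58 in FAM60A knockdown cells, against 14.75, 14.75 and 14.74 in their controls, a fall of 0.18 (adjusted p = 0.0187). Its probe set is of the shared-sequence class, and NPM1 has near-identical copies in the genome whose signal cannot be told apart here. Nucleolin (NCL), a major nucleolar RNA-binding protein, had 13.16, 13.15 and 13.12 in SDS3 knockdown cells, against 13.07, 13.23 and 13.21 in their controls with overlap, and 13.71, 13.69 and 13.70 in FAM60A knockdown cells, against 13.85, 13.84 and 13.89 in their controls, a fall of 0.16 (adjusted p = 0.0384). NOLC1, a chaperone of small nucleolar ribonucleoproteins, had 12.12, 12.12 and 12.21 in SDS3 knockdown cells, against 11.93, 11.90 and 11.92 in their controls (log2 change 0.23, SE 0.0509, adjusted p = 0.00733), and 12.27, 12.12 and 12.12 in FAM60A knockdown cells, against 12.11, 11.97 and 12.12 in their controls with overlap (log2 change 0.10, SE 0.0667, adjusted p = 0.262). The FAM60A falls of NPM1 and NCL passed in 12 and 6 of 17 alternatives, and neither passed under the spike-in scalings. The call of NPM1 was lost without FAM60A control 1 or knockdown 2, and that of NCL without any 1 array other than control 2. The SDS3 rise of NOLC1 was lost with averaged probe sets and under both spike-in scalings (-0.05 with those added before labelling), and its other probe sets gave 0.04 and -0.03.

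ODC1 encodes ornithine decarboxylase, which starts polyamine synthesis and does not assemble ribosomes. It had 13.04, 12.96 and 13.09 in SDS3 knockdown cells, against 13.11, 13.04 and 13.00 in their controls with overlap (log2 change -0.02, SE 0.0576, adjusted p = 0.846), and 13.02, 12.90 and 12.97 in FAM60A knockdown cells, against 13.50, 13.46 and 13.48 in their controls, a fall to 69.8% of control (log2 change -0.52, SE 0.0561, adjusted p = 3.55e-05). The changes differed by 0.5 (adjusted p = 0.000292). Of 13 polyamine pathway genes, 3 rose and 3 fell in SDS3 knockdown cells (23.1% each, against 15.8% and 18.8% of all tested genes). In FAM60A knockdown cells 4 rose (30.8%, against 19.2%) and 2 fell (15.4%, against 17.6%). AMD1, which supplies the aminopropyl donor, and AZIN1, which relieves inhibition of ornithine decarboxylase, fell by 0.79 and 0.74 in SDS3 knockdown cells. The 2 falls in FAM60A knockdown cells were ODC1 itself and AZIN1 (-0.32, adjusted p = 0.00239). SAT1, which acetylates polyamines for export, rose by 0.58 in FAM60A knockdown cells. SRM, also on this list, changed by -0.19 in SDS3 and 0.27 in FAM60A knockdown cells (adjusted p = 0.0475 and 0.00261). Its SDS3 change did not pass with quantile normalization (adjusted p = 0.0846).

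Assembly factors outside the members were more often lower than higher. Their lists were drawn up by function but with earlier results of these data known, so they are not independent support. Of 43 further 60S factors, 15 fell and 4 rose in SDS3 knockdown cells (median -0.106), and 22 fell and 2 rose in FAM60A knockdown cells (median -0.165). Of 39 genes listed here as further 40S factors, 11 fell and 4 rose (median -0.093), and 21 fell and 3 rose (median -0.245). Falls were 34.9% and 51.2% of the 60S list and 28.2% and 53.8% of the 40S list, against 18.8% and 17.6% of all tested genes. Rises were 9.3% and 4.65%, and 10.3% and 7.69%, against 15.8% and 19.2%. NOL10, EMG1 and BCCIP fell by 1.49, 1.22 and 1.15 in SDS3 knockdown cells. EMG1 is a methyltransferase of 18S ribosomal RNA, and these 3 falls were of a size with that of NOB1. In FAM60A knockdown cells the largest were DIMT1 (-0.77), an 18S dimethyltransferase, RSL24D1 (-0.75), which holds a place in the 60S precursor, and RRP15 (-0.66).

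Of 13 exosome genes, which trim ribosomal RNA, 4 fell in SDS3 knockdown cells (30.8%, against 18.8% of all tested genes) and none rose. In FAM60A knockdown cells 5 fell (38.5%, against 17.6%) and 1 rose (7.69%, against 19.2%). EXOSC2 fell by 0.38 in SDS3 knockdown cells and EXOSC8 by 0.53 in FAM60A knockdown cells. Of 15 further polymerase I factors and subunits, 2 rose and 2 fell in SDS3 knockdown cells (13.3% each, against 15.8% and 18.8% of all tested genes). In FAM60A knockdown cells 2 rose (13.3%, against 19.2%) and 1 fell (6.67%, against 17.6%). These shares are below those of all tested genes. UBTF, which binds ribosomal DNA and recruits the polymerase, changed by 0.59 (adjusted p = 7.07e-05) and 0.25 (adjusted p = 0.00614), higher in both like POLR1A, although with spike-in scaling neither passed (0.3 and 0.16).

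Few genes listed for the proteins of the ribosome itself passed in either experiment. The list of 62 cytoplasmic ribosomal protein genes includes paralogues and similarly named genes such as RPL22L1, RPL39L and RPL7L1. Of the 62, 5 fell and none rose in SDS3 knockdown cells (median 0.027), and 4 fell and none rose in FAM60A knockdown cells (median -0.023). These falls were 8.06% and 6.45%, against 18.8% and 17.6% of all tested genes. RPL22L1, a paralogue of RPL22, fell by 0.36 and 0.84, and RPL39L fell by 0.46 and 0.32. The other falls in FAM60A knockdown cells were RPL36 (-0.2) and RPL7L1 (-0.19). In SDS3 knockdown cells scaling to spike-ins added before labelling put 13 of the 62 lower, against 44.2% of all tested genes. Many ribosomal protein genes have near-identical copies that probe sets may also match.

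Some other measures moved with the groups and others did not, and their part in the member changes was not tested. Of 8 proliferation markers 3 fell in SDS3 knockdown cells (37.5%, against 18.8% of all tested genes), among them MKI67 (-0.4). In FAM60A knockdown cells 6 fell (75%, against 17.6%), among them CDK1 (-0.79) and MCM2 (-0.62). The marker medians were -0.088 and -0.271. The probe sets for 18S ribosomal RNA were higher by 0.53 in SDS3 knockdown arrays and 0.28 in FAM60A knockdown arrays, and those for 28S by 0.63 and 0.13. These are control probe sets of the array and do not measure ribosomal RNA synthesis, and the exact two-sided permutation p was 0.1 for each, the smallest that 3 against 3 arrays can give. Spike-in RNAs added before labelling were higher by 0.29 in SDS3 knockdown arrays (exact permutation p = 0.1) and 0.09 in FAM60A knockdown arrays (exact permutation p = 0.5). The 3′ minus 5′ signal of ACTB, a measure of RNA integrity, changed by -0.01 and -0.09 (exact permutation p = 0.7 and 0.1). The same measure for GAPDH changed by 0.01 and 0. Spike-ins added at hybridization changed by 0.08 and -0.06 (exact permutation p = 0.3 and 0.4).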

How the data were processed

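Labelled RNA of 12 A549 samples, from 1 ug of total RNA each per the labels, was measured on 1-colour Affymetrix arrays carrying 54675 probe sets. The authors deposited probe set intensity on a linear scale, made with RMA per the submitters' processing notes, which give no version; other settings are not given in the sources used here. RMA makes the signal distributions of arrays alike, which removes a change common to most genes. The design had assumed deposited log2 values, and log2 was therefore taken here. No per-sample column was left unused.

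Of the probe sets, 41097 had 1 gene symbol, 1801 several and 11777 none listed, and 41043 took their current symbol from RefSeq's GRCh38.p14 gene list by Entrez identifier. The brightest probe set, by mean over the 12 arrays, stood for a gene, and probe sets of several genes were not used. Genes at log2 5 or more on at least 3 of 12 arrays were tested with limma 3.58.1 (lmFit and eBayes, R 4.3.3), each knockdown against its own controls, and the difference of the 2 changes in 1 fit, with Benjamini-Hochberg adjustment over all tested genes and a threshold of 0.05. The script was tested on simulated data. The number of arrays, 3 per group, limits the precision, and the smallest exact permutation p of 3 against 3 arrays is 0.1.

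All members are accounted for by role. Per-array values are given for the up to 8 largest rises and falls per knockdown, the 6 largest differences, and all members of role groups of 5 or fewer with a passing member. Outside the members, the targets, MYC and up to 4 genes per related list and knockdown were named. The members and lists were chosen with earlier results of these data known. No pair of arrays within a group was a duplicate, and pairs from different groups are not reported here. Alternatives were the filter, the choice of probe set, scaling, limma's trend and robust options, 1 fit of all arrays, a replicate block and leaving out each array.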

Additional observations from a re-analysis of the deposited data

Results flagged for a closer look

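WDR43 and WDR75 were picked out because each passed as higher in SDS3 knockdown cells and as lower in FAM60A knockdown cells. Genes picked this way were likely to show a large difference and separate arrays, so the values below describe them and test nothing. For WDR43 the SDS3 change exceeded the FAM60A change by 0.56 log2 units (SE 0.0664, limma adjusted p = 2.86e-05), with 3 of 3 SDS3 knockdown arrays above and 3 of 3 FAM60A knockdown arrays below their controls. For WDR75 the SDS3 change exceeded the FAM60A change by 0.4 (SE 0.081, adjusted p = 0.00212). With spike-ins added before labelling these differences were 0.36 and 0.2 and did not pass. Without single arrays both differences still passed, but the FAM60A fall of WDR43 was lost without 5 of the 6 arrays in turn and that of WDR75 without 4 of the 6. With hybridization spike-ins the WDR75 difference was 0.27 and did not pass.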

How the results depend on the processing

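Of the members that passed, 7 of 26 in SDS3 knockdown cells (HEATR1, IMP3, NOB1, PES1, POLR1A, POLR1C and UTP18) and 18 of 32 in FAM60A knockdown cells passed under every alternative run, as did 2 of the 17 differences (IMP3 and NOB1); 19, 32 and 16 kept their sign throughout. Members lower in SDS3 knockdown cells numbered 20, against 13 with the mean of all probe sets, 13 without probe sets of shared sequence (46 members tested), 12 with a replicate block, and 11 to 19 leaving out each array in turn. Of all genes 18.8% fell in the main fit. Under these alternatives, in the same order, 18.1%, 16.8%, 17.1% and 15% to 18.7% fell. Members lower in FAM60A knockdown cells numbered 31, against 18 with scaling to hybridization spike-ins, 26 with the replicate block and 25 to 28 leaving out each array. Of all genes 17.6% fell in the main fit, and 9.2%, 15.8% and 14% to 17.2% under these alternatives. Array numbers did not pair the samples, since same-numbered arrays correlated at -0.078 to 0.034 in the SDS3 experiment and -0.118 to -0.072 in the FAM60A experiment. Scaling to spike-ins added before labelling gave 1 member higher in SDS3 knockdown cells and 1 higher in the difference, medians of -0.379 (SDS3) and -0.337 (FAM60A), and values of -0.05 for NOLC1 and -0.07 for WDR75 in SDS3 knockdown cells. Scaling to hybridization spike-ins, added after seeing the data, gave medians of -0.17 and -0.189 and 4 members higher in the difference. The mean of all probe sets gave a FAM60A median of -0.188, 1 member lower in the difference, and reversed values in SDS3 knockdown cells for MRTO4 (0.06), POLR1D (-0.15), POLR1E (0.02) and UTP25 (-0.14), in FAM60A knockdown cells for UTP25 (-0.45), and in the difference for RRP12 (0.03). Without shared-sequence probe sets the SDS3 median was -0.043, 1 member was lower in the difference, and MRTO4 (0.35), RRP12 (0.2) and TSR1 (0.16) reversed in SDS3 knockdown cells, as did the RRP12 difference (0.25). Members higher in FAM60A knockdown cells numbered 2 with limma's trend and robust options and 2 with the filter at log2 7. Of all genes 20.3% and 24.2% rose there. Leaving out each array gave medians of -0.109 to -0.08 (SDS3) and -0.267 to -0.204 (FAM60A). Where a result moved, the cause was not tested.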
